A study of Mus musculus with 18 samples.

Results

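The genes described here carry out bile acid synthesis in the liver or belong to its feedback control by the farnesoid X receptor (FXR). They are Cyp7a1, Cyp8b1, Cyp27a1, Cyp7b1, Cyp39a1, Hsd3b7, Akr1d1, Baat, Nr0b2 and Nr1h4. Every probe that the array files name as one of these 10 genes was taken, which gave 13 of the 41174 probes, and 10 of the 27845 gene names, on the array. Cyp7a1, Cyp39a1 and Baat had 2 probes each and the other 7 genes had 1. Liver RNA came from 18 male CD-1 mice, an outbred stock, with 6 mice in each of 3 groups and 1 Cy3-labelled Agilent array per mouse. The control mice ate a diet without bisphenol A, a monomer of polycarbonate plastic. The low-dose mice ate a diet made up to give 50 µg of bisphenol A per kg body weight per day, and the high-dose mice one for 5000 µg per kg per day. The doses were set from an assumed food intake, per the labels. All mice were 9 weeks old after 28 days on the diet.

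The liver makes bile acids from cholesterol, and they leave in bile, emulsify fat in the gut and return to the liver. The classical route opens with the hydroxylation of cholesterol by Cyp7a1, and the alternative route with side chain hydroxylation by Cyp27a1. Bile acids bind FXR, the product of Nr1h4. In the liver, FXR induces Nr0b2, whose product SHP represses Cyp7a1 and Cyp8b1, and in the ileum it induces the hormone FGF15, which lowers Cyp7a1 through the liver receptor FGFR4 and its partner beta-Klotho.

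RefSeq promoter sequences (build GRCm38.p6) matched 6 of the 10 genes by symbol. The 250 bases before the start of Nr0b2, the gene of the repressor in this loop, and of Cyp8b1, one of its targets, are shown because they hold the short motifs of nuclear receptors known at these genes. Capitals mark exact matches to TCAAGG (the half-site of LRH-1, product of Nr5a2), AGGTCA (the general nuclear receptor half-site), CAAAGT (part of the site of HNF4A) or CACGTG (the E-box of basic helix-loop-helix factors), searched on both strands. Sequences run 5′ to 3′ in the direction of the gene.
Nr0b2, chr4:133553126-133553375, plus strand: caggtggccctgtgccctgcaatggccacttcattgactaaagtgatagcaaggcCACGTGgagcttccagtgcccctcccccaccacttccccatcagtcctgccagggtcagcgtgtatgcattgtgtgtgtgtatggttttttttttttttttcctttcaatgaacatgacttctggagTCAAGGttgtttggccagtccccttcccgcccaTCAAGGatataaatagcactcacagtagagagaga
Cyp8b1, chr9:121916306-121916555, minus strand: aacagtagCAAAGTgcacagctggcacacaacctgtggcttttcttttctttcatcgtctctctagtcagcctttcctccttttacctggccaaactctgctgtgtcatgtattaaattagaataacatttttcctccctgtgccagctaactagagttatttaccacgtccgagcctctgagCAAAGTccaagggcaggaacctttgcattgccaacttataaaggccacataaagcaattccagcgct
The Nr0b2 window held TCAAGG at 68 and at 35 bases before the start, and CACGTG at 195 bases before it. The Cyp8b1 window held CAAAGT at 242 and at 67 bases before the start. In all 32851 promoters of the same length, TCAAGG occurred in 12.5% and at least 2 copies of it in 0.922%. CAAAGT occurred in 12.6% and at least 2 copies of it in 0.953%. AGGTCA occurred in 14.0% and CACGTG in 6.02%. Of the other 4 promoters, that of Nr1h4 held AGGTCA at 1 place, and that of Akr1d1 held AGGTCA at 2 places, 1 of them overlapping a match to TCAAGG. Those of Cyp27a1 and Hsd3b7 held none of the 4 motifs. A match of this kind is a description of the sequence.

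Values are levels on a log2 scale, in which the background-subtracted intensity of a probe is set against the 75th percentile of its own array. A level of 0 is that percentile, and a difference of 1 is a doubling. Levels of different probes depend on the probe and were not set against each other. All 13 probes passed the filter on dim probes and none was saturated on any array. Controls were dimmer arrays: the 75th percentile of intensity was 178.5 to 305.5 in control mice, 228.0 to 351.0 in low-dose mice and 265.2 to 354.1 in high-dose mice. The 18 arrays lay on 5 slides, each with both dosed groups and 4 of them with controls. A slide held 1 or 2 mice of a group, so a group mean within a slide rests on 1 or 2 mice. In bulk liver, fewer cells of a type and less RNA per cell cannot be told apart.

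None of the 13 probes passed an adjusted p of 0.05 in any of the 3 comparisons (limma, Benjamini-Hochberg over all probes tested). Over all probes, 0.224% passed for low dose minus control, 0% for high dose minus control (1853 probes at an unadjusted p of 0.05) and 0.0433% for high dose minus low dose. The smallest adjusted p among the 13 was 0.153 for low dose minus control, 0.574 for high dose minus control and 0.151 for high dose minus low dose. At an unadjusted p of 0.05, 3 probes were lower at the low dose than in controls (2 of Cyp7a1 and the 1 of Nr1h4), where 6.86% of all probes were. At the high dose, 3 probes were lower than in controls (2 of Cyp39a1 and the 1 of Cyp8b1), where 4.28% of all probes were. Between the doses, 3 probes were higher at the high dose (2 of Cyp7a1 and the 1 of Nr1h4), where 3.33% of all probes were.

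Group means leaned down at the low dose. There, 12 of the 13 probes had a lower mean than in controls, against 54% of all probes, and Nr0b2 alone had a higher one. The median log2 fold change was -0.32 over the 13 probes and -0.27 over the 10 genes (brightest probe of each), against -0.02 over all probes. At the high dose, 9 of the 13 were lower than in controls, against 52.2% of all probes, with a median of -0.03 against -0.01 over all probes. From the low to the high dose, 9 of the 13 were higher, against 53.1% of all probes, with a median of 0.08 against 0.01 over all probes. The lean at the low dose depended on the background method: with normexp correction 6 of the 13 probes were lower than in controls (median 0.01), where the median of all probes was -0.16 and that of probes with a level above 2 was 0.28. It also shrank in a fit that held array brightness (log2 of the 75th percentile), where 11 of the 13 were lower with a median of -0.15.

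**Figure D1:**
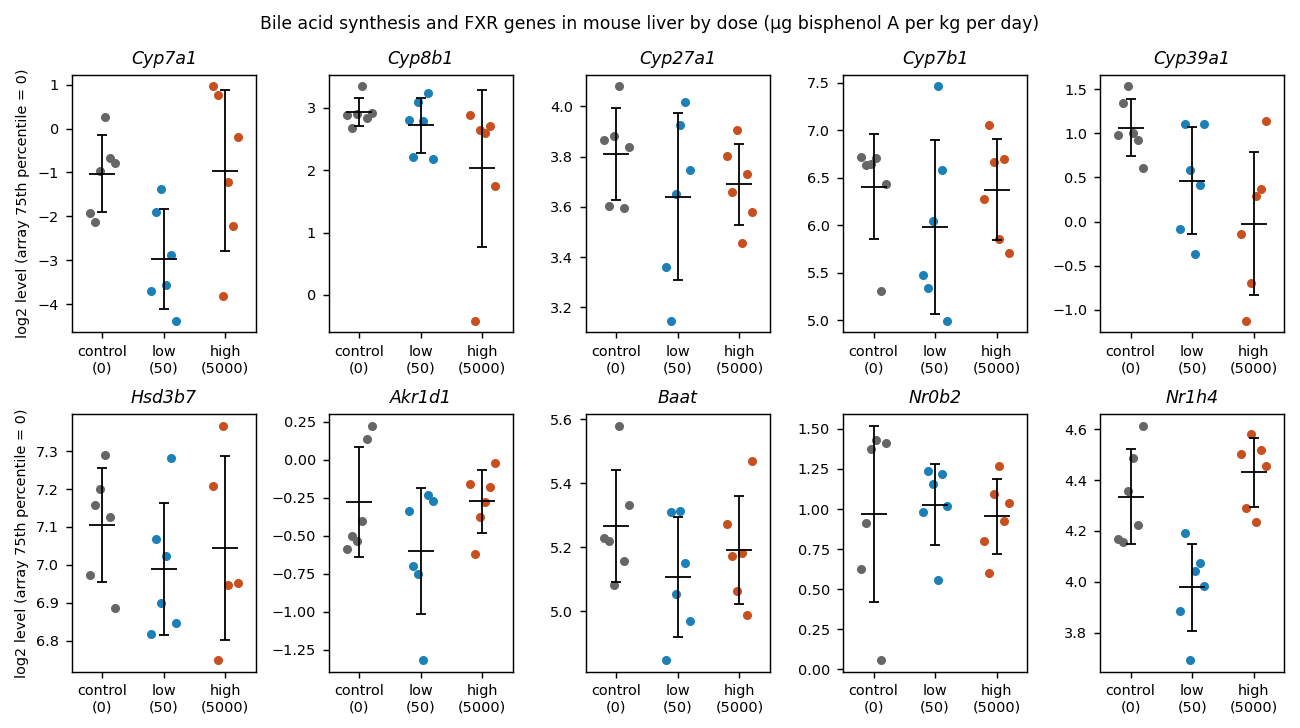
Level of each gene in each mouse (points) with the group mean and SD (black), on the log2 scale where 0 is the 75th percentile of the array, for the brightest probe of each gene and n = 6 mice per group (5 for Hsd3b7 at the high dose). Each panel has its own axis range. The low-dose mean is the lowest of the 3 for 7 of the 10 genes (not for Cyp8b1, Cyp39a1 and Nr0b2), and 1 high-dose mouse sits apart at -0.41 for Cyp8b1.

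Cyp7a1, the rate-limiting enzyme of the classical route, had the widest spread of the 10 genes. Its brighter probe (A_52_P84027, mm8 chr4:6193456-6193515, minus strand) had a lowest, median and highest level of -2.12, -0.88 and 0.27 in control mice. The levels were -4.37, -3.22 and -1.38 in low-dose mice, and -3.80, -0.71 and 0.96 in high-dose mice. Of the low-dose mice, 4 lay below every control, and the high-dose mice ran from within the low-dose range to above every control. The mean was -2.97 ± 1.14 at the low dose and -1.03 ± 0.88 in controls (SD, n = 6 each), a log2 fold change of -1.94 ± 0.73 (SE), or 3.83-fold lower, with an adjusted p of 0.271 (limma). The 95% interval of that change ran from -3.47 to -0.40. The mean of the low-dose mice was lower than that of the controls of their slide on 4 of 4 slides, by -3.70 to -0.56. On slides 3, 4 and 5 every low-dose mouse was among the 4 below every control, which fixed the direction there and adds no support. Only slide 2 could have gone either way, at -0.56. In the fit with array brightness the change was -1.90 (adjusted p = 0.712, limma).

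The other Cyp7a1 probe (A_51_P290981, mm8 chr4:6195632-6196238, a span of 607 bases as the files give it) was dim. It was well above background in 6 of 6 control mice, 3 of 6 low-dose mice and 6 of 6 high-dose mice. Its mean was -4.76 ± 1.00 at the low dose and -3.42 ± 0.68 in controls (SD, n = 6 each), a log2 fold change of -1.34 (adjusted p = 0.276, limma). The pair of probes followed each other over the 18 mice (Pearson r = 0.919, a description). In the authors' deposited value table the low-dose change was -1.16 for the brighter probe and -0.41 for the dimmer one. With normexp it was -1.16 and -0.75.

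At the high dose Cyp7a1 averaged -0.96 ± 1.84 against -1.03 ± 0.88 in controls (SD, n = 6 each). The log2 fold change was 0.07 with a 95% interval from -1.46 to 1.61. High-dose mice 1 and 2 had the highest levels of all 18 mice, at 0.96 and 0.76, while high-dose mouse 3 was at -3.80. High dose minus low dose was 2.01 ± 0.73 (SE; adjusted p = 0.486, limma) with the brighter probe and 1.68 ± 0.51 (adjusted p = 0.355) with the dimmer one. It was smaller in the authors' deposited table, at 1.35 and 0.525, and with normexp, at 1.26 and 0.70. Within slides the brighter probe was higher at the high dose on 4 of 5 slides, with differences from -0.24 to 4.05, and the dimmer one on 5 of 5. The pooled SD within groups of the brighter probe was 1.35, which exceeded that of 98.9% of all probes.

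Cyp8b1, which adds the hydroxyl group that directs synthesis to cholic acid, had a narrow range in controls (A_51_P266618, mm8 chr9:121764175-121764234). The lowest, median and highest levels were 2.68, 2.89 and 3.35 in control mice, 2.19, 2.79 and 3.24 in low-dose mice, and -0.41, 2.63 and 2.88 in high-dose mice. High-dose mouse 2 stood apart at -0.41 and high-dose mouse 6 was next at 1.75, while the other 4 high-dose mice lay between 2.60 and 2.88. The mean was 2.03 ± 1.26 at the high dose and 2.93 ± 0.22 in controls (SD, n = 6 each). The log2 fold change was -0.90 ± 0.42 (SE; unadjusted p = 0.0480, adjusted p = 0.681, limma), -0.41 without high-dose mouse 2 (adjusted p = 0.828) and -0.54 with array weights. Low dose minus control was -0.21, with a 95% interval from -1.10 to 0.68, and 0.12 with normexp. High-dose mouse 2 thus had the lowest Cyp8b1 and the next to highest Cyp7a1 of the 18 mice.

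Cyp27a1, the mitochondrial sterol hydroxylase that opens the alternative route, varied little (A_51_P112817, mm8 chr1:74668836-74668895). Its lowest, median and highest levels were 3.60, 3.85 and 4.08 in control mice, 3.15, 3.70 and 4.02 in low-dose mice, and 3.45, 3.69 and 3.91 in high-dose mice. The groups overlapped throughout. The log2 fold change was -0.17 at the low dose (95% interval -0.46 to 0.12) and -0.12 at the high dose (-0.41 to 0.17). The low-dose difference was -0.07 without low-dose mouse 2, 0.18 with normexp and 0.07 in the fit with array brightness.

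Cyp7b1, which hydroxylates the oxysterols of the alternative route and is higher in livers of male than of female mice, varied more (A_51_P461429, mm8 chr3:18264437-18264496). Levels were 5.31, 6.64 and 6.72 in control mice (lowest, median, highest), 4.99, 5.76 and 7.46 in low-dose mice, and 5.70, 6.47 and 7.06 in high-dose mice. Control mouse 5 lay at 5.31 and the other 5 controls between 6.43 and 6.72, and low-dose mouse 4 had the highest level of all 18 mice. Low dose minus control was -0.42, with a 95% interval from -1.21 to 0.36. It was -0.72 without low-dose mouse 4, -0.64 without control mouse 5 and -0.23 without low-dose mouse 6. It was -0.05 with normexp and turned to 0.06 in the fit with array brightness. High dose minus control was -0.03, with a 95% interval from -0.82 to 0.76.

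Cyp39a1, an oxysterol hydroxylase of the endoplasmic reticulum that acts on the cholesterol metabolite made in the brain, had a lower mean at the high dose with both probes. With probe A_52_P557265 (mm8 chr17:43213479-43213538) the lowest, median and highest levels were 0.61, 0.99 and 1.53 in control mice. They were -0.36, 0.50 and 1.11 in low-dose mice and -1.12, 0.07 and 1.14 in high-dose mice. Of the high-dose mice, 5 lay below every control, and high-dose mouse 6 lay within the controls at 1.14. The mean was -0.03 ± 0.81 at the high dose and 1.07 ± 0.33 in controls (SD, n = 6 each), a log2 fold change of -1.09 ± 0.33 (SE; unadjusted p = 0.00445, adjusted p = 0.574, limma). The other probe (A_51_P515446, mm8 chr17:43213111-43213170) gave -1.14 ± 0.35 (adjusted p = 0.574), and the pair followed each other closely (Pearson r = 0.991 over 18 mice).

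The mean of the high-dose mice was below that of the controls of their slide on 4 of 4 slides and below that of the low-dose mice of their slide on 5 of 5, with either probe. Against controls the direction was fixed on slides 2, 3 and 5, because the high-dose mouse there lay below every control, and it adds no support. Only slide 4 could have gone either way, at -0.16 for A_52_P557265. Single mice overlapped on slide 4, where high-dose mouse 6 was at 1.14, the low-dose mouse at 1.11 and the control at 0.92. The differences of means within slides ran from -2.46 to -0.16 against controls and from -1.28 to -0.30 against low-dose mice for A_52_P557265. At the low dose Cyp39a1 averaged 0.46 ± 0.61 against 1.07 ± 0.33 in controls (SD, n = 6 each), a log2 fold change of -0.60 (adjusted p = 0.494, limma), -0.40 with normexp, and it was lower on 2 of 4 slides.

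Hsd3b7, the enzyme both routes share for the next change to the sterol ring, had the highest level on 1 high-dose array and the lowest on another (A_51_P435911, mm8 chr7:127594739-127594798). Its spot on the array of high-dose mouse 5 was marked as an outlier and dropped, which left 5 high-dose mice. Levels were 6.89, 7.14 and 7.29 in control mice (lowest, median, highest), 6.82, 6.96 and 7.28 in low-dose mice, and 6.75, 6.95 and 7.37 in high-dose mice. The groups overlapped, and the log2 fold change was -0.12 at the low dose (95% interval -0.36 to 0.13) and -0.06 at the high dose (-0.32 to 0.19).

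Akr1d1, the reductase that bends the sterol ring system into the shape of a bile acid, had a lower mean at the low dose (A_51_P391631, mm8 chr6:37497021-37497080). Levels were -0.59, -0.45 and 0.22 in control mice, -1.32, -0.52 and -0.23 in low-dose mice, and -0.62, -0.23 and -0.02 in high-dose mice. Low-dose mouse 4 alone lay below -1. Low dose minus control was -0.32 (95% interval -0.72 to 0.08), -0.18 without that mouse and -0.20 with normexp, and high dose minus control was 0.0035 (-0.40 to 0.40).

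Baat joins bile acids to an amino acid, taurine for the most part in mice, as the last step of synthesis. Its brighter probe (A_51_P245123, mm8 chr4:49510573-49510584, a span of 12 bases as the files give it) had levels of 5.08, 5.22 and 5.58 in control mice, 4.85, 5.10 and 5.31 in low-dose mice, and 4.99, 5.18 and 5.47 in high-dose mice. The groups overlapped. Low dose minus control was -0.16 (95% interval -0.39 to 0.07) and high dose minus control -0.07 (-0.30 to 0.15). The other probe (A_52_P43150, mm8 chr4:49511161-49511220) gave -0.14 and -0.01, and the pair was less alike than those of Cyp7a1 and Cyp39a1 (Pearson r = 0.643 over 18 mice).

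Nr1h4, the bile acid receptor FXR, had the smallest p among the 13 probes between the doses (A_51_P464669, mm8 chr10:88884353-88884412). Its lowest, median and highest levels were 4.16, 4.29 and 4.62 in control mice, 3.69, 4.01 and 4.19 in low-dose mice, and 4.24, 4.48 and 4.58 in high-dose mice. Every high-dose mouse lay above every low-dose mouse, as was so for 0.142% of all probes. Of the low-dose mice, 5 lay below every control. The spread within groups was small, with a pooled SD of 0.17 that exceeded that of 15.6% of all probes.

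Nr1h4 averaged 3.98 ± 0.17 at the low dose and 4.33 ± 0.19 in controls (SD, n = 6 each), a log2 fold change of -0.36 ± 0.10 (SE), or 1.28-fold lower, with an unadjusted p of 0.00312 and an adjusted p of 0.153 (limma). High dose minus low dose was 0.45 ± 0.10 (SE), or 1.37-fold higher, with an unadjusted p of 0.000415, which ranked 70 of 25425 probes, and an adjusted p of 0.151 (limma). High dose minus control was 0.10, with a 95% interval from -0.12 to 0.32. Within slides the mean of the low-dose mice was lower than that of controls on 4 of 4 slides, by -0.38 to -0.18. On slides 3, 4 and 5 every low-dose mouse lay below every control of the group, which fixed the direction there and adds no support. Only slide 2 could have gone either way, at -0.20. The mean of the high-dose mice was 0.31 to 0.54 above that of the low-dose mice of their slide. That direction was fixed on every slide by the lack of overlap between the doses and adds no support.

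The low-dose difference of Nr1h4 depended on the background method. With normexp correction it was 0.01. Set against the median of all probes under normexp, the difference of Nr1h4 was 0.17, and against the median of probes with a level above 2 it was -0.27. In a fit that also held array brightness, the low-dose difference was -0.26 (adjusted p = 0.707, limma). High dose minus low dose was 0.29 with normexp (adjusted p = 0.765) and 0.45 in the fit with brightness (adjusted p = 0.161).

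Nr0b2, the FXR target SHP, averaged 0.97 ± 0.55 in control mice, 1.03 ± 0.25 in low-dose mice and 0.95 ± 0.24 in high-dose mice (SD, n = 6 each; A_51_P265338, mm8 chr4:132825855-132825914). Its lowest, median and highest levels were 0.06, 1.14 and 1.43 in control mice, 0.56, 1.09 and 1.24 in low-dose mice, and 0.60, 0.98 and 1.27 in high-dose mice. The controls held both the lowest and the highest level of the 18 mice. Low dose minus control was 0.06, with a 95% interval from -0.38 to 0.50, high dose minus control was -0.02 (-0.45 to 0.42) and high dose minus low dose was -0.07 (-0.51 to 0.37).

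**Figure D2:**
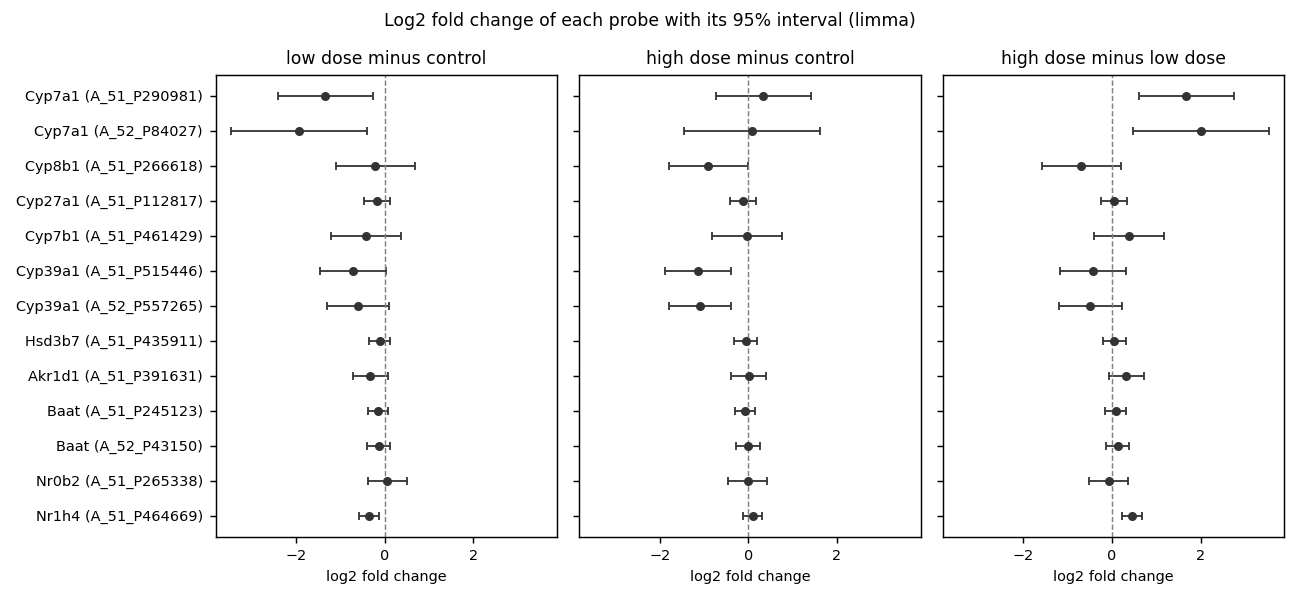
Log2 fold change (points) and its 95% interval (bars) for each of the 13 probes in the 3 comparisons, from limma with all 18 arrays in 1 model. At the low dose 12 of the 13 points lie below 0, and the intervals of both Cyp7a1 probes and of Nr1h4 end below it.

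**Figure D3:**
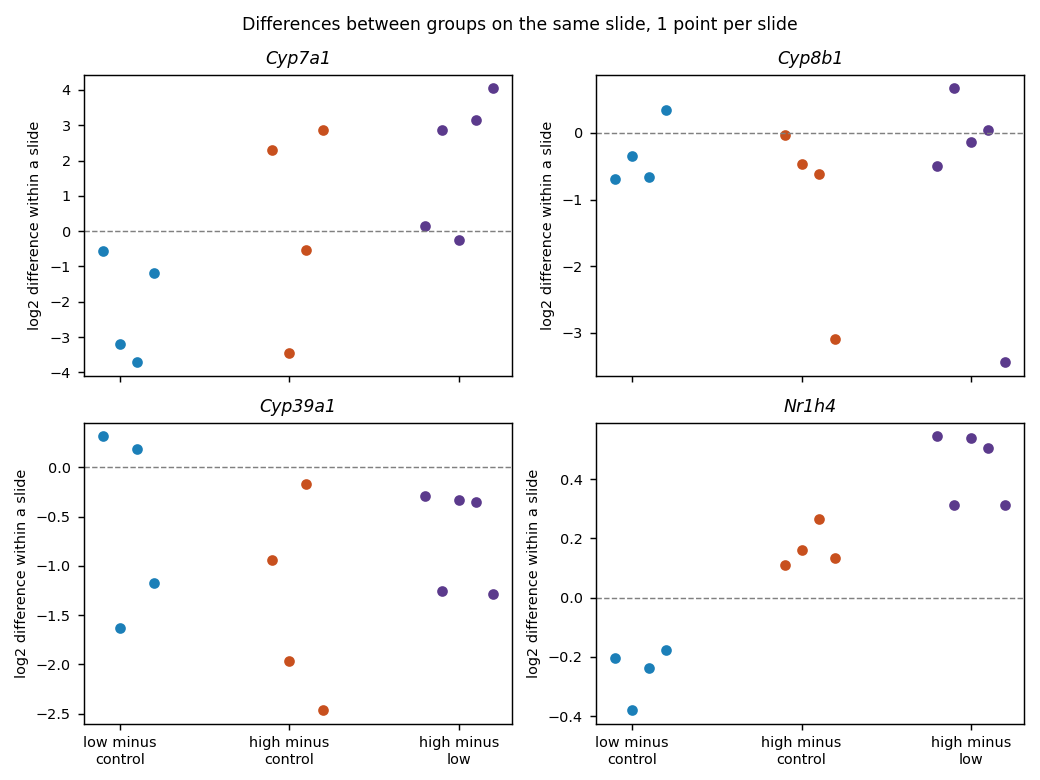
Differences of group means between mice on the same slide, on the log2 scale, with 1 point per slide (4 slides hold controls and 5 hold both doses), for the brighter probe of each gene. Each mean is that of only 1 or 2 mice. Low dose minus control lies below 0 on 4 of 4 slides for Cyp7a1 and Nr1h4, where only slide 2 could have gone the other way. High dose minus control lies below 0 on 4 of 4 slides for Cyp39a1, where only slide 4 could have. On the other slides with controls, every mouse of that dose lay below every control, which fixed the direction. For Cyp8b1 high dose minus control also lies below 0 on 4 of 4 slides. It runs from -0.03 on slide 2 to -3.09 on slide 5, whose only high-dose mouse is mouse 2. High dose minus low dose lies above 0 on 5 of 5 slides for Nr1h4, which the lack of overlap between the doses fixes in advance.

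The question whether the other 9 genes varied with Cyp7a1 from mouse to mouse was asked within groups, with levels centred on the group means, permutation of mice within groups (100000 resamples, 2-sided) and adjustment over the 9 relations. None passed. Baat came nearest, with Pearson r = 0.506 (permutation p = 0.0417, adjusted p = 0.375) and Spearman rho = 0.567 (permutation p = 0.0241, adjusted p = 0.217) over 18 mice, and r = 0.492 without the 2 mice farthest from the median of Cyp7a1. That was its brighter probe, and the other Baat probe gave r = 0.13. For Cyp8b1 r was -0.25 and rho -0.08 (permutation p = 0.533 and 0.791). For Nr0b2 r was 0.03 and rho 0.07 (permutation p = 0.888 and 0.764), and for Nr1h4 r was -0.06 and rho 0.06 (permutation p = 0.812 and 0.823). The other 5 genes had r between -0.18 and 0.04, with adjusted p of 0.965 each.

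Of 21119 probes with a gene symbol, those most like Cyp7a1 over the 18 arrays belonged to Afmid (r = 0.791), Iqgap2 (0.782), Mapk13 (0.775), Rab13 (0.761) and C230096K16Rik (0.753). After centring on group means they belonged to Ncam1 (0.748), Mapk13 (0.745), Fbln1 (0.726), Kbtbd2 (0.716) and Olfr933 (0.714). Mapk13 was the gene on both lists. Ncam1 was well above background on 7 arrays and C230096K16Rik on 8. These are the top of many correlations over few mice and are given as a description.

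Among the other enzymes and carriers of bile acid synthesis, 11 of 12 listed genes were measured and none passed an adjusted p of 0.05 in any comparison. At the low dose 8 of the 11 were lower than in controls, against 54% of all probes (median log2 fold change -0.20). At an unadjusted p of 0.05, 6 were lower and 1 higher, where 6.86% of all probes were lower and 5.43% higher. Slc27a2, a bile acid and very long chain acyl-CoA synthetase of peroxisomes and endoplasmic reticulum, averaged 6.57 ± 0.25 at the low dose and 7.25 ± 0.12 in controls (SD, n = 6 each). Its log2 fold change was -0.69 ± 0.15 (SE; adjusted p = 0.0722, limma), and every low-dose mouse lay below every control, as did 1.03% of all probes. Amacr, the racemase that prepares the side chain for peroxisomal shortening, gave -0.33 (adjusted p = 0.161, limma), again with every low-dose mouse below every control. Scp2, the thiolase that ends the shortening, gave -0.30 (adjusted p = 0.253) with a probe saturated on 14 arrays.

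At the high dose 8 of these 11 genes were lower than in controls, against 52.2% of all probes, with a median of -0.10. Slc27a5, the main bile acid ligase of liver, was at 7.09 ± 0.16 against 6.83 ± 0.15 in controls (SD, n = 6 each; adjusted p = 0.647, limma). From the low to the high dose 9 of the 11 were higher, against 53.1% of all probes. Slc27a2 was at 0.45 (adjusted p = 0.486) and Acox2, the oxidase of side chain shortening, at 0.29 (adjusted p = 0.575). Cyp46a1 went the other way, at -0.90 between the doses (adjusted p = 0.620, limma). Against controls it was at 0.87 at the low dose (adjusted p = 0.39), the 1 higher gene at an unadjusted p of 0.05.

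The FXR target and FGF15 signalling genes (11 of 12 measured) also had 0 calls (limma). At an unadjusted p of 0.05, 3 of the 11 differed from controls at the low dose, where 12.3% of all probes did, and 1 at the high dose, where 7.29% did. Fgb, a chain of fibrinogen, was 1 of the 3 and the 1 at the high dose, with -0.38 (low dose, adjusted p = 0.164) and -0.32 (high dose, adjusted p = 0.619) from a probe saturated on all 18 arrays. At the low dose 6 of the 11 were lower than in controls, against 54% of all probes, with a median of -0.03. At the high dose 6 were lower, against 52.2% of all probes, with a median of -0.03. Abcb11, the bile salt export pump and a classic FXR target, gave -0.16 (low dose) and -0.10 (high dose). Abcb4, the phospholipid flippase of bile, averaged 6.09 ± 0.14 at the low dose and 6.47 ± 0.13 in controls (SD, n = 6 each), a change of -0.38 (adjusted p = 0.173, limma). Slc51b, a subunit of the basolateral bile acid exporter, gave 0.96 (adjusted p = 0.264) from a low level. Fgfr4, the FGF15 receptor of liver, gave -0.30 (adjusted p = 0.578) and Klb, its partner beta-Klotho, 0.16 (adjusted p = 0.688).

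Of the transcription factors and cofactors known to act on Cyp7a1 or Cyp8b1, 12 of 12 were measured and none passed. At the low dose 11 of the 12 were lower than in controls, against 54% of all probes. Their median was -0.09, against -0.02 over all probes. At an unadjusted p of 0.05, 2 were lower at the low dose, where 6.86% of all probes were. Between the doses 2 were higher at the high dose, where 3.33% of all probes were. Nr2f2, an orphan receptor, averaged 1.32 ± 0.16 at the low dose and 1.83 ± 0.12 in controls (SD, n = 6 each), a change of -0.51 (adjusted p = 0.109, limma). For Nr2f2 every low-dose mouse lay below every control, as was so for 1.03% of all probes. Prox1, a corepressor of LRH-1 and HNF4A, averaged 1.74 ± 0.27 at the low dose and 2.28 ± 0.33 in controls (SD, n = 6 each), a change of -0.55 (adjusted p = 0.181). Between the doses Prox1 was at 2.50 ± 0.30 at the high dose and 1.74 ± 0.27 at the low dose (SD, n = 6 each), a difference of 0.76 ± 0.17 (SE; adjusted p = 0.145). As for Nr1h4, every high-dose mouse lay above every low-dose mouse, as was so for 0.142% of all probes. Nr5a2 and Hnf4a, which drive Cyp7a1 and Cyp8b1, differed from controls by -0.10 to -0.01 over both doses.

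**Figure D4:**
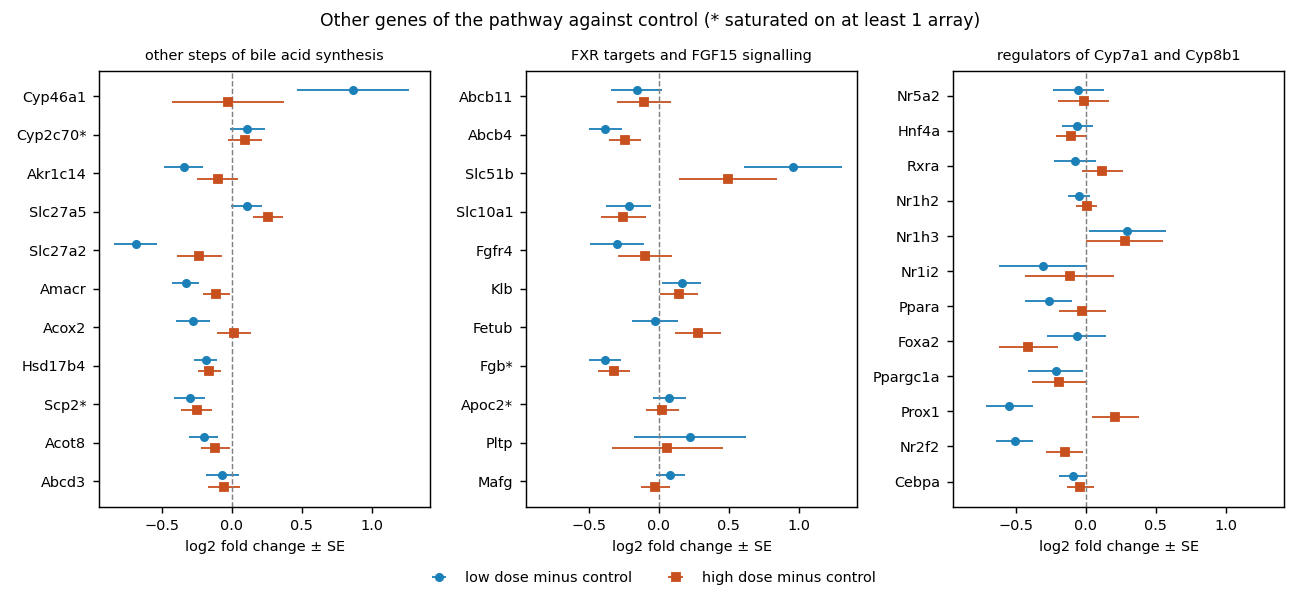
Log2 fold change ± SE against control of the measured genes of 3 lists, at the low dose (circles) and the high dose (squares), for the brightest kept probe of each gene. Slc27a2, Prox1 and Nr2f2 lie below -0.50 at the low dose, and Slc51b (0.96) and Cyp46a1 (0.87) are the highest points at that dose. An asterisk marks genes saturated on at least 1 array.

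Cyp7a1 is a clock-controlled gene in rodent liver. Of 15 measured clock genes 0 passed an adjusted p of 0.05, and at an unadjusted p of 0.05, 2 did at the low dose, 9 at the high dose and 6 between the doses. Of all probes, 12.3%, 7.29% and 7.66% did in these comparisons. Dbp, a clock output factor that can activate Cyp7a1, averaged 2.53 ± 0.30 at the high dose and 0.72 ± 0.69 in controls (SD, n = 6 each), a log2 fold change of 1.81 (adjusted p = 0.574, limma), and gave 0.11 at the low dose. Between the doses Dbp was at 2.53 ± 0.30 (high dose) and 0.83 ± 1.21 (low dose; SD, n = 6 each), a difference of 1.70 (adjusted p = 0.220, limma). Per2, a repressor of the clock, gave 1.62 at the low dose (adjusted p = 0.0936). Nr1d1, the clock repressor REV-ERB alpha, gave 1.24 for high dose minus low dose (adjusted p = 0.307). The part of the clock in the Cyp7a1 levels was not tested.

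The hepatocyte markers, 12 of 12 measured, matched the labelled tissue, with Alb, Fgb and Ahsg saturated on all 18 arrays and 6 of the 12 saturated on at least 8. Their summed intensity, in units of the 75th percentile of the array, was 1621 to 2346 in control mice, 1434 to 1919 in low-dose mice and 1485 to 1906 in high-dose mice. At each dose 10 of the 12 were lower than in controls, against 54% (low dose) and 52.2% (high dose) of all probes. Their medians were -0.27 and -0.28. The 6 with an unadjusted p under 0.05 at the low dose, and the 5 at the high dose, were all saturated genes. All of them were lower than in controls, where 6.86% (low dose) and 4.28% (high dose) of all probes were lower at that p. Of the 6 unsaturated genes, 4 were lower at each dose, with medians of -0.15 and -0.11. Their summed intensity was 300.2 to 508.6 in control mice, 312.1 to 441.5 in low-dose mice and 310.8 to 422.9 in high-dose mice. For the 30 probes of the array that every one of the 18 scans saturated, the median was -0.37 (low dose) and -0.34 (high dose). The cholangiocyte markers (8 of 12 measured) summed to 10.5 to 23.5 in control mice, 11.5 to 32.6 in low-dose mice and 12.6 to 95.6 in high-dose mice. The median sums were 12.1 in control mice, 19.0 in low-dose mice and 14.7 in high-dose mice. Krt19, a keratin of bile ducts, gave 0.79 at the low dose (adjusted p = 0.133). Their part in the levels of the 10 genes was not tested.

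The other marker lists gave 1 call. Hand2 of the stellate cell list (10 of 10 measured) was lower at the low dose, with a log2 fold change of -0.91 (adjusted p = 0.0402, limma). No probe was called at the low dose in the fit that also held array brightness. The median at the low dose was -0.07 for 12 pericentral and -0.20 for 11 periportal hepatocyte genes, -0.20 for 11 male-biased and 0.20 for 7 female-biased liver genes. It was 0.16 for 10 Kupffer cell, -0.02 for 10 endothelial, -0.01 for the 10 stellate and 0.10 for 8 lymphocyte markers. At the high dose the medians of those lists, in the same order, were 0.13, -0.16, -0.11, 0.26, 0.41, -0.16, -0.04 and 0.35. Of the intestinal markers, 4 of 8 were measured, and Fgf15, Fabp6 and Lct were under the filter on dim probes.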

How the data were processed

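Total liver RNA of 18 mice was measured on 1-colour Cy3 arrays. Per the file headers, Agilent Feature Extraction 9.5 gave the deposited intensity of each spot after background subtraction and detrending, not normalised between arrays. The authors' deposited value table holds log2 intensity with like quartiles on all arrays, and its steps are not given in the sources used here beyond limma in the submitters' processing notes. The log2 of each intensity was taken, and each array was then centred on its own 75th percentile. Outlier spots were dropped and repeated spots averaged. Probes well above background on at least 6 of 18 arrays were kept (25427), and each was tested alone with limma 3.58.1 (R 4.3.3), group as the only term, 2-sided, with Benjamini-Hochberg adjustment and a threshold of 0.05. Precision is set by the 6 mice per group; over all probes the standard error of a group difference had a median of 0.164 (log2). Promoter motifs and permutations used Python 3.11.15.

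The genes and the lists were chosen with earlier results of these data known. All 10 genes are named with every probe, and of each other list the counts, the median and up to 3 genes with the smallest p in a comparison, read from the brightest kept probe; further list genes, such as Abcb11, Fgfr4, Klb, Nr5a2 and Hnf4a, were added for their role after their values were seen, as were the promoter motifs. Coordinates of probes are on mm8 and of promoters on GRCm38.p6. Mouse numbers in the labels are not stated to pair mice: the deviations of same-numbered mice from their group means correlated at -0.29 to 0.33 (18 pairs). Arrays on the same slide were more alike, with a median correlation of 0.163 (21 pairs) against -0.055 for arrays on different slides (87 pairs). The main fit holds no term for the slide.

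The alternatives tried were quantile or median scaling, normexp background (offset 50), the deposited table, other filters on dim probes, the brightest probe per gene, only the groups compared, trend and robust eBayes, array weights, slide as a fixed or random block, mouse number as a replicate block, array brightness as a covariate, and each array left out. Pck1, Mup20, Sult2a1, Trac and Sis were not analysed here.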

Additional observations from a re-analysis of the deposited data

Results flagged for a closer look

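A highest or lowest mouse far from the other 5 of its group was found in 3 of the 39 sets of a probe and a group, where chance gives about 1 in 20. For Cyp8b1, high-dose mouse 2 was at -0.41, below the next mouse at 1.75. For Cyp8b1 in controls, mouse 4 was at 3.35, above the next at 2.93. For Cyp7b1, control mouse 5 was at 5.31, below the next at 6.43.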

How the results depend on the processing

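None of the 13 probes was called in any comparison under any alternative run, left-out arrays included, so the limits concern directions and the background. The count of all probes called for low dose minus control (57 as reported) was 15 with array median scaling, 8 with normexp, 15 with no filter, 127 with probes well above background on all arrays, 142 with only the groups compared, 120 with trend and robust eBayes, 223 with array weights, 4 with slide as a fixed block, 13 with the replicate block by mouse number and 0 with array brightness as a covariate (1827 at an unadjusted p of 0.05). It was 7 (without control mouse 5) to 111 (without high-dose mouse 2) with 1 array left out. For high dose minus low dose (11) it was 7 with the median, 1 with normexp, 4 with no filter, 5 with the brightest probe, 0 with only the groups compared, 31 with weights, 0 with the slide block, 0 with the replicate block and 0 (without low-dose mouse 6 or high-dose mouse 1) to 17 (without low-dose mouse 4) with 1 array left out. Calls for high dose minus control were 0 throughout (limma). The calls at the low dose split 40 higher and 17 lower as reported, 44 and 9 with quantile normalisation, 14 and 1 with the median, 8 and 0 with normexp, and 57 and 14 in the deposited table. Mouse numbers share no stated source, and the replicate block changed no call of the 10 genes.

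At the low dose 12 of the 13 probes were lower under each scaling (median -0.32 as reported), 11 with the brightness covariate (-0.15) and 6 with normexp (0.01). At the high dose 9 were lower as reported, 10 with array median scaling, 5 with quantile normalisation or the covariate and 6 with normexp. It was 8 with the deposited table, array weights or the fixed slide block. The differences that turned sign follow, and the cause was not tested. For low dose minus control, normexp gave 0.12 for Cyp8b1, 0.18 for Cyp27a1, 0.27 for Hsd3b7, 0.20 and 0.18 for Baat and 0.0092 for Nr1h4, and the brightness covariate gave 0.067 for Cyp27a1, 0.063 for Cyp7b1 and -0.013 for Nr0b2. For high dose minus control, normexp gave -0.057 for the dim Cyp7a1 probe, 0.094 for Cyp7b1, 0.19 for Hsd3b7, -0.0018 for Akr1d1, 0.072 and 0.064 for Baat and 0.079 for Nr0b2, and the brightness covariate gave 0.11 for Cyp27a1, 0.44 for Cyp7b1, 0.044 for Hsd3b7, -0.072 for Akr1d1 and 0.0081 and 0.023 for Baat. Quantile normalisation gave 0.029 for Cyp7b1, 0.0055 and 0.045 for Baat and 0.010 for Nr0b2, and the median gave -0.055 for Akr1d1. The deposited table gave 0.083 for Hsd3b7, -0.015 for Akr1d1 and 0.014 for Nr0b2, and array weights gave 0.0057 for Nr0b2. The fixed slide block gave 0.21 for Cyp7b1, -0.079 for Akr1d1 and 0.016 for Nr0b2, and the random slide block gave 0.028 for Cyp7b1 and -0.020 for Akr1d1. For high dose minus low dose, normexp gave -0.19 for Cyp27a1, -0.079 for Hsd3b7 and -0.13 and -0.11 for Baat, and the median gave -0.0098 for Cyp27a1 and -0.0044 for Hsd3b7.

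With 1 array left out, low dose minus control ran from -0.31 to -0.10 for Cyp8b1 and -0.20 to -0.096 for Baat (A_51_P245123), and high dose minus control ran from -0.059 to 0.10 for Akr1d1, -0.077 to 0.040 for Baat (A_52_P43150), -0.31 to 0.64 for Cyp7a1, -0.25 to 0.10 for Cyp7b1, -0.14 to 0.013 for Hsd3b7 and -0.20 to 0.077 for Nr0b2. High dose minus low dose ran from -0.051 to 0.12 for Cyp27a1 and -0.025 to 0.13 for Hsd3b7, and low dose minus control from -0.12 to 0.15 for Nr0b2. Without centring on group means, the correlation with Cyp7a1 was 0.029 for Cyp27a1, 0.13 for Cyp7b1, 0.0073 for Hsd3b7, -0.030 for Nr0b2 and 0.44 for Nr1h4 (adjusted permutation p = 0.306 for Nr1h4). Baat had the largest, at 0.57, and the smallest adjusted permutation p of the 9 genes, 0.121. Signal over background limits the dim Cyp7a1 probe, which was well above background on 15 of 18 arrays.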
